A study of Mus musculus with 10 samples.

Results

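Prostaglandin genes of mouse hair follicle stem cells (HFSCs) were examined as 10 genes chosen by symbol from the 37298 gene rows of the deposited expression table. They are the 5 enzyme genes Ptgs1, Ptgs2, Ptges, Ptgds and Hpgd and the 5 receptor genes Ptger1, Ptger2, Ptger3, Ptger4 and Ptgfr. The group was put together with the expression results of these libraries known, above all the higher level of Ptger4 in libraries labelled Sox9 conditional knockout (cKO), so levels in that comparison are given as a description, with no p-value.

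The study asked which genes of HFSCs depend on the transcription factor SOX9 and where SOX9 binds. RNA was sequenced from HFSCs sorted from telogen back skin as integrin α6-high, CD34-positive, ScaI-negative and YFP-positive cells of mixed C57BL6 background. SOX9 was mapped by ChIP-seq, the sequencing of DNA precipitated with an antibody, in 2 HFSC libraries and 1 library of interfollicular epidermis (IFE, the surface epithelium between follicles). The 2 libraries labelled cKO carry the genotype entry Sox9 knock out; the 2 controls are called Het in their titles and wild type in their genotype entry. All 4 RNA libraries came from mice given RU486, which activates the drug-inducible Cre fusion CrePGR. In each genotype, replicate 2 is female, of day 80, treated on days 53 to 66, and replicate 1 is male, of day 75, treated on days 48 to 61. For ChIP, CD-1 females aged 52 to 60 days were used with no treatment, and IFE cells were sorted as CD34-negative. Neither the promoter behind CrePGR nor the number of mice per library is stated in the labels used here.

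Prostaglandins are short-lived lipid signals made from arachidonic acid, which phospholipases release from membranes. The cyclooxygenases turn it into prostaglandin H2, terminal synthases turn this into prostaglandin E2, D2 or F2α, and a dehydrogenase inactivates the products, which otherwise act through G protein-coupled receptors on the same or nearby cells. In skin, prostaglandins E2 and F2α are known as promoters of hair growth and prostaglandin D2 as an inhibitor, and drugs of the F2α class lengthen eyelashes.

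The identity of the sort and of the genotype labels was looked at first. All 10 HFSC markers were listed above 5 FPKM (fragments per length of transcript, scaled to the library's mapped fragments) in every library, among them Cd34, the sort marker, at 460 and 463 FPKM in libraries labelled cKO and 652 and 680 in controls. Of these markers 5 were lower in the library labelled cKO in both pairs and 1 was higher, beside 29.6% and 28.4% of all genes tested. With the replicate number as a block limma called 1 of the 10, beside 0.284% of all genes, and without the block 0. It was Lhx2, a transcription factor of these cells (log2 difference -1.40, limma with the block, adjusted p = 0.0273). Lhx2 stood at 114 and 87.1 FPKM in libraries labelled cKO and 359 and 195 in controls. The blocked fit called 0 genes with no filter on low values, with libraries rescaled to 1 FPKM sum or without the mean trend. The markers were chosen with earlier results of these data known, so nothing is read from the call. Nfatc1 stood at 46.7 and 14.1 FPKM in libraries labelled cKO, against 76.7 and 19.8 in controls, and Tbx1 at 95.6 and 144 against 202 and 185. Their part in the differences described here was not tested. Mast cell and endothelial markers stayed below 1 FPKM in all libraries (6 of 6 and 5 of 5), while keratins of differentiated epidermis were abundant, with Krt10 between 1729 and 3973 FPKM. Sox9 itself stood at 71.3 and 80.5 FPKM in libraries labelled cKO and at 82.7 and 46.5 in controls (replicates 1 and 2), so its level was higher in the library labelled cKO of replicate 2, against the label. The value covers the whole gene, and the deleted part was not analysed here. Every direction given here therefore follows the labels. Summed markers of other cells were 58.0 and 110 FPKM in libraries labelled cKO and 57.9 and 148 in controls for immune cells, and 196 and 72.2 against 155 and 77.0 for sebocytes. For fibroblasts they were 28.0 and 32.2 FPKM in libraries labelled cKO and 21.3 and 22.4 in controls, higher in both pairs. Among the 8 markers, 5 were below 1 FPKM in all libraries. Col1a2, the 1 of 3 tested markers higher in both pairs, stood at 21.9 and 13.8 FPKM against 14.8 and 7.40 in controls. Col1a1 and Thy1 went in opposite directions in the pairs (log2 differences -1.07 and 2.15, and 0.25 and -0.45, replicates 1 and 2). For melanocytes, where 8 of 9 markers were found, the sums were 47.7 and 15.2 against 43.1 and 17.5. Of these 8, 5 stayed below 1 FPKM in all libraries. Mitf alone stood at 44.3 and 13.7 FPKM in libraries labelled cKO and 39.5 and 15.1 in controls. The part of fibroblast markers in the level of Ptger4 was not tested. FPKM summed over all rows lay between 555420 and 903766 per library.

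The cells listed the machinery for making and clearing prostaglandin E2 at moderate levels and most of the receptors near 0. Ptgs1 (ENSMUSG00000047250; mm9 chromosome 2, 36085945 to 36107792), the constitutive cyclooxygenase, was the highest of the 10 genes in each library, at 54.7 and 45.8 FPKM in libraries labelled cKO and 53.2 and 70.4 in controls (replicate 1, then replicate 2, as in all pairs of values here unless stated). Ptges (ENSMUSG00000050737), the microsomal synthase that finishes prostaglandin E2, stood at 21.1 and 18.2 FPKM against 23.9 and 24.0 in controls. Hpgd, the dehydrogenase that starts the breakdown of prostaglandins, had a range of 11.6 to 49.6 FPKM, and Ptgs2, the inducible cyclooxygenase, one of 3.60 to 36.2. The ranges of Ptges, Hpgd and Ptgs2 overlap, so no order among these 3 holds across the libraries. Ptgds (ENSMUSG00000015090; mm9 chromosome 2, 25322228 to 25325566), the lipocalin-type prostaglandin D synthase, stayed below 1 FPKM throughout, between 0.438 and 0.968.

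Among receptors only Ptger4 was listed well above 1 FPKM. It encodes EP4, a receptor for prostaglandin E2 that raises cyclic AMP (cAMP) through the G protein Gs. Ptger1 (ENSMUSG00000019464; mm9 chromosome 8, 86190731 to 86223078), for the calcium-linked receptor EP1, lay at 1.01 and 1.06 FPKM in libraries labelled cKO and at 1.47 and 0.651 in controls. Ptger2 (ENSMUSG00000037759; chromosome 14, 45470909 to 45626575), for EP2, the other cAMP-raising receptor, lay between 0.0414 and 0.128 FPKM. Ptger3 (ENSMUSG00000040016; chromosome 3, 157229855 to 157307722), for the cAMP-lowering receptor EP3, lay between 0.0768 and 0.507, and Ptgfr (ENSMUSG00000028036; chromosome 3, 151461881 to 151500594), for the F2α receptor FP, between 0.143 and 0.987. The order Ptger4 above the other 4 receptor genes was found in each library, but the ranges of Ptger1 and Ptgfr, of Ptgfr and Ptger3, and of Ptger3 and Ptger2 overlap. With 4 genes below 1 FPKM in all libraries and the number of reads unknown, these low values show little beyond a low level. In sorted bulk RNA, fewer expressing cells and less RNA per cell cannot be told apart.

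**Figure D1:**
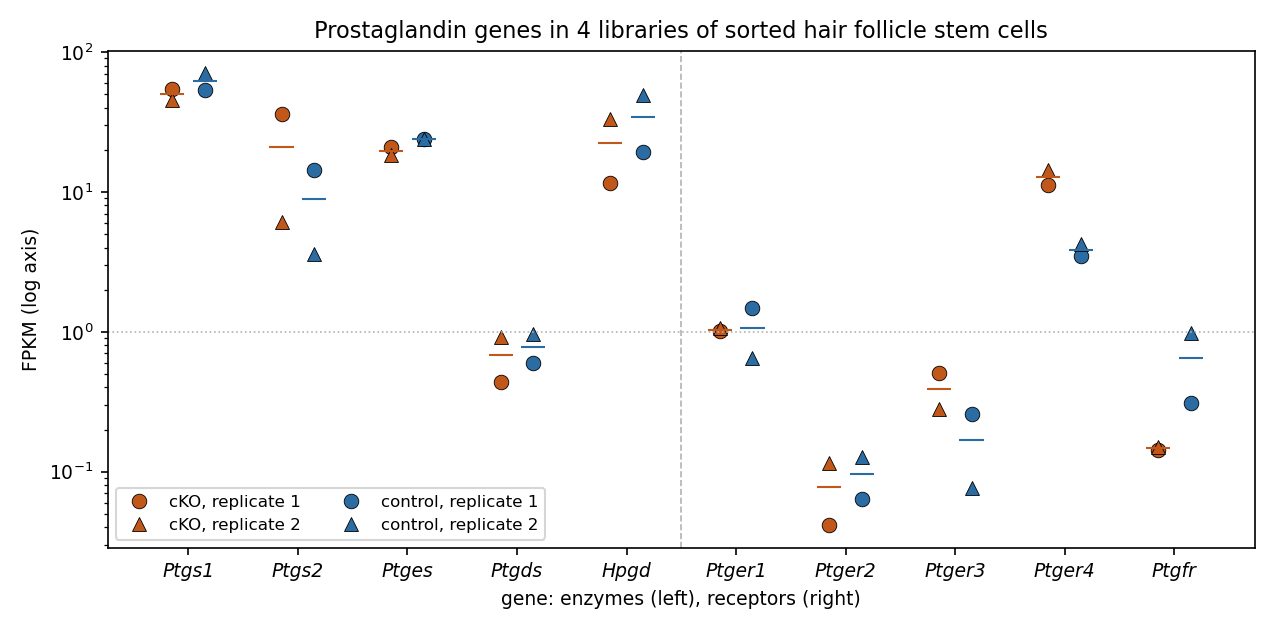
FPKM (log axis) of the 5 enzyme genes and 5 receptor genes in 4 libraries; each point is 1 library (circle replicate 1, triangle replicate 2; orange labelled cKO, blue control), short bars are means of 2 libraries, and the dotted line marks 1 FPKM. Ptger4 is 11.3 and 14.3 in libraries labelled cKO, above both controls at 3.51 and 4.21, while Ptgs2 and Hpgd separate by replicate.

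Ptger4 was about 3 times as high in the libraries labelled cKO, with little spread between pairs. Ptger4 (ENSMUSG00000039942; mm9 chromosome 15, interval 5093860 to 5194187) stood at 11.3 and 14.3 FPKM in libraries labelled cKO, against 3.51 and 4.21 FPKM in controls. The means were 12.8 ± 2.16 and 3.86 ± 0.498 FPKM (SD, n = 2 each), and the genotypes did not overlap. The ratio of FPKM was 3.22 in the replicate 1 pair and 3.40 in the replicate 2 pair. On the log2(FPKM + 1) scale the pairs differed by 1.45 and 1.56 (mean 1.50 ± 0.17, moderated SE of limma with the replicate number as a block), the 22nd highest of 14455 genes tested. With genotype fitted alone the SE was 0.33. That interval is shared with 4 other loci. Ttc33 and Prkaa1 stood at 19.2 and 21.5 and at 12.6 and 5.93 FPKM in libraries labelled cKO, against 19.4 and 21.4 and 11.6 and 5.88 in controls. Ttc33 and Prkaa1 thus differed by at most 0.11 (log2) within either pair. Gm15937 was low but higher in both libraries labelled cKO, at 0.301 and 0.436 FPKM, against 0.190 and 0.0242 in controls (log2 differences 0.13 and 0.49), and Gm15938 stayed below 1 FPKM in all libraries. Whether reads of these loci were shared with Ptger4 was not tested. Of all genes tested, 0.415% were at least 2-fold higher in the library labelled cKO in both pairs, and Ptger4 is one of them. Because Ptger4 was chosen for its level in this comparison, nothing is read from this share or from its rank.

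Ptgs2 was also higher in both libraries labelled cKO than in the same-numbered control, but by unequal amounts. Ptgs2 (ENSMUSG00000032487; mm9 chromosome 1, 151947253 to 151955140) stood at 36.2 and 6.05 FPKM in libraries labelled cKO and at 14.2 and 3.60 in controls. The genotypes overlap, since the replicate 2 library labelled cKO lies below the replicate 1 control. The pair ratios were 2.54 and 1.68, or 1.29 and 0.62 on the log2(FPKM + 1) scale (mean 0.95 ± 0.20, moderated SE with the block). Without the block the SE was 0.96, about as large as the difference. In the fit with no block the value turned to -0.25 once the cKO library of replicate 1 was left out, which carries part of the replicate difference.

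Hpgd went the other way, with similar ratios in both pairs. Hpgd (ENSMUSG00000031613; mm9 chromosome 8, 58773348 to 58799843) stood at 11.6 and 33.1 FPKM in libraries labelled cKO and at 19.3 and 49.6 in controls. The genotypes overlap because the replicate 2 values exceed the replicate 1 values in both. The pair ratios of libraries labelled cKO to controls were 0.600 and 0.667, and the log2 differences -0.69 and -0.57 (mean -0.63 ± 0.14, moderated SE with the block). Without the block the SE was 0.67, about as large as the difference. In the fit with no block the value turned to 0.09 once the cKO library of replicate 1 was left out and to 0.03 once the control of replicate 2 was, again with part of the replicate difference in it. Markers of differentiated epidermis lay lower beside it, though limma called 0 of them with or without the block. Of 10 rows tested, which stand for 5 genes, 6 are listed as Flg. The counts of rows below thus weigh Flg 6 times, and nothing about the list is read from them. Krt10 was the row not lower in both pairs (log2 differences 0.03 and -0.63). In both pairs 9 of the 10 rows were lower in the library labelled cKO, beside 29.6% of all genes tested. Before adjustment 7 of the 10 had p under 0.05 in limma with the block and 0 without it. With the block 11.4% of all genes had such a p. The sum of the list was 2537 and 4689 FPKM in libraries labelled cKO and 2681 and 7341 in controls. Their part in the level of Hpgd was not tested.

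The other enzymes differed less. Ptges was lower in both pairs, with ratios of 0.883 and 0.760 and no overlap between genotypes (19.6 ± 2.00 FPKM in libraries labelled cKO and 23.9 ± 0.0895 in controls, SD, n = 2 each). Ptgs1 was level in replicate 1, at a ratio of 1.03, and at 0.650 in replicate 2. Ptgds had ratios of 0.729 and 0.951 at a level below 1 FPKM.

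Of the low receptors, Ptgfr and Ptger3 kept the genotypes apart. Ptgfr stood at 0.143 and 0.149 FPKM in libraries labelled cKO and at 0.311 and 0.987 in controls, a mean difference of -0.49 on the log2(FPKM + 1) scale. Ptger3 stood at 0.507 and 0.278 FPKM in libraries labelled cKO and at 0.258 and 0.0768 in controls, a mean difference of 0.25. These log2 values depend on the pseudocount: with 0.1 in place of 1 they became -1.44 and 0.93. Ptger1 went in opposite directions in the pairs (-0.30 and 0.32), and Ptger2 differed by -0.03 and -0.02.

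**Figure D2:**
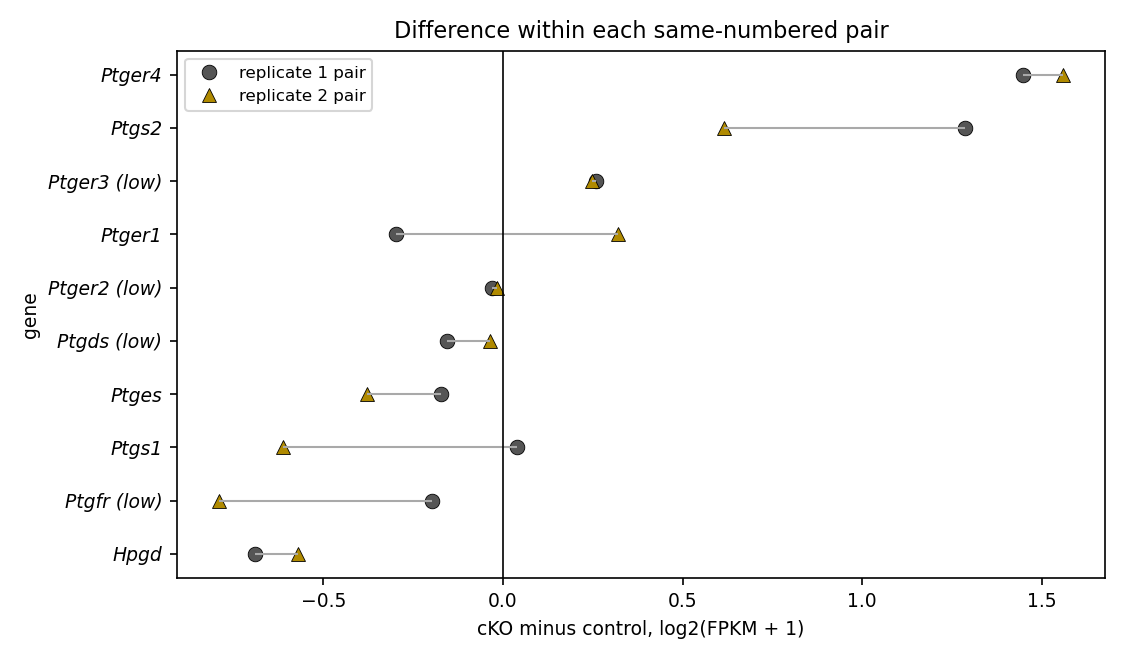
Difference of the library labelled cKO minus its same-numbered control on the log2(FPKM + 1) scale for each gene (circle replicate 1 pair, triangle replicate 2 pair, joined by a line; "low" marks genes with a mean under 1 FPKM). Ptger4 lies at 1.45 and 1.56, Hpgd at -0.69 and -0.57, and Ptgs1 and Ptger1 span 0.

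Counted over the group, 3 genes were higher and 5 lower in both pairs, 2 went in opposite directions, and 4 had genotypes that did not overlap. Among all gene rows above 0 in some library, 16.9% had genotypes that did not overlap. Of the 6 genes of the group that were tested, 2 were higher and 2 lower in both pairs. Of all genes tested 28.4% were higher and 29.6% lower in both pairs. No such share was taken beside the count over all 10 genes. A filter of a mean of at least 1 FPKM left 6 of the 10 genes for the test over all genes, with Ptger1 just inside at 1.05 and Ptgds just outside at 0.731. In the fit of genotype alone, limma called 0 of the 6 genes, and 0% of all genes (93 of 14455 had p under 0.05 before adjustment). With the replicate number as a block it called 1 of the 6, Ptger4, while it called 0.284% of all genes (0.104% on the higher side); 11.4% of all genes had p under 0.05 before adjustment in this fit. As Ptger4 was singled out from this comparison, nothing is read from that count. The blocked call was not made with quantile normalization, with libraries rescaled to 1 sum, with no filter on low values or without the mean trend. The median log2 difference was -0.13 over the 6 genes and -0.01 over all genes tested. Rescaling the libraries to 1 sum moved the median of all genes to -0.12; relative to it Ptger4 was at 1.51, Ptgs2 at 0.96 and Hpgd at -0.64.

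Promoter sequence is shown for the 3 genes whose mean differences were largest among those tested, to set the values beside the DNA around their start sites. The windows hold 250 bases before and 50 after the start, from RefSeq on GRCm38.p6, a build other than the mm9 of the deposited intervals; 9 of the 10 genes had an entry. Capitals mark matches to CACGTG (E-box), TGACG (the half-site of the cAMP response element, CRE), CCAAT, and the SOX core letters ACAAAG or ACAATG, on either strand. The windows are chr15:5244138-5244437 (minus strand) for Ptger4, chr1:150099781-150100080 (plus strand) for Ptgs2 and chr8:56294302-56294601 (plus strand) for Hpgd.
Ptger4: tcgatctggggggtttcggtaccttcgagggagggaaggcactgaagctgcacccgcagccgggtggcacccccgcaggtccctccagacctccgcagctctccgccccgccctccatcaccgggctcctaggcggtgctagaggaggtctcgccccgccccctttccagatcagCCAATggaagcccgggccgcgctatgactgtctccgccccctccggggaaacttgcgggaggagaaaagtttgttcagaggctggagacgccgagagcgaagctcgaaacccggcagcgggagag
Ptgs2: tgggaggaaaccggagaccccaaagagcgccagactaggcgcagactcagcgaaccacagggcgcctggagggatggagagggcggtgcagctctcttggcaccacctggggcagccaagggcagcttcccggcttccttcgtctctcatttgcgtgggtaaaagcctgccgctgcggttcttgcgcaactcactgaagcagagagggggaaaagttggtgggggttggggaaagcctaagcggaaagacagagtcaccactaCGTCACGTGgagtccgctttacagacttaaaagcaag
Hpgd: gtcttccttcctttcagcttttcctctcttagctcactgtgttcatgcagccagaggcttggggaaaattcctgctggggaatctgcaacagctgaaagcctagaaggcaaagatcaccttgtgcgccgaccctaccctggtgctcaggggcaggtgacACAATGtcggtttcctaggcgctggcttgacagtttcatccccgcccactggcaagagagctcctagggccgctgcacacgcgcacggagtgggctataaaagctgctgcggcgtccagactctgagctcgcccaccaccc
The Ptgs2 window holds a CRE half-site on the reverse strand that overlaps an E-box, the first base of the run lying 14 bases past the RefSeq start. TGACG is found in 21.0% of 27025 promoters of the same length (1 window per gene) and CACGTG in 7.24%. The Ptger4 window holds a single CCAAT, a match present in 37.9% of promoters, and neither SOX core. ACAATG begins 91 bases before the start of Hpgd, and is found in 12.8% of promoters, among them those of Ptges and Ptger2 in this group. ACAAAG was matched in Ptgds alone of the 9, beside 18.7% of promoters, the full CRE TGACGTCA in none of the 9, beside 1.88%, and the AP-1 letters TGANTCA in Ptgds alone, beside 7.93%. A match is no evidence of binding, and these windows say nothing about sequence further away.

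SOX9 peaks were then sought within 50 kb of each deposited interval. The lists hold 8181 and 2989 peaks in HFSCs and 5209 in IFE cells, called per library; 25.0% of the peaks of HFSC list 1 overlapped a peak of list 2, and 68.6% of list 2 one of list 1. Of the 10 genes, 4 had a peak within 50 kb in HFSC list 1 (Ptges, Hpgd, Ptger1 and Ptger2), beside 38.2% of all gene rows. In HFSC list 2 there were 3 (Ptges, Ptger1 and Ptger3), beside 25.5%, and in both lists at an overlapping position 2 (Ptges and Ptger1), beside 17.6%. The IFE list had 4 (Ptges, Ptger1, Ptger3 and Ptger4), beside 36.5%. The counts are near the shares of all genes, and they are no result about the group.

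Ptges carried the only peak inside an interval that all 3 lists share. It spans 30773914 to 30774803 on mm9 chromosome 2 in HFSC list 1, 30774194 to 30774803 in HFSC list 2 and 30774362 to 30774652 in the IFE list. A second peak in the interval, 30775493 to 30776277, is in HFSC list 2 alone, and one at 30753630 to 30754017 in the IFE list alone. The interval, 30744990 to 30785383, is shared with Gm13400 and gives no strand, so the distance to the Ptges start was not taken. Ptger1 had 2 peaks below its interval in all 3 lists, 13821 to 13902 bp and 46750 to 46945 bp away.

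The 3 genes with the largest genotype differences had no SOX9 peak shared by both HFSC lists within 100 kb. The nearest such peak lay 1463630 bp from the interval of Ptger4, 851135 bp from that of Ptgs2 and 4311425 bp from that of Hpgd. Ptger4 had no HFSC peak within 100 kb. The nearest lay 993693 bp away in list 1 and 1463970 bp away in list 2, and an IFE peak at 5066281 to 5066618 lay 27242 bp below the interval. That interval is 100328 bp long and shared with Ttc33, Prkaa1 and other loci, and the distance to the Ptger4 start was not taken. Ptgs2 had none within 100 kb in any list, the nearest being 284534 bp away in HFSC list 2. Hpgd had 4 peaks within 50 kb in HFSC list 1, between 12246 and 23246 bp from its interval on both sides, and none within 100 kb in the other 2 lists. Ptger2 had 1 peak, in HFSC list 1, inside a 155667 bp interval that it shares with Ptgdr and 3 other loci. Ptger3 had 1 peak at 32530 bp in HFSC list 2 and 32425 bp in the IFE list. At the edge of the 50 kb window, the farther Ptger1 peak of list 1 lay just inside at 46750 bp, and a Ptgfr peak just outside at 54086 bp. Peak heights were not in the lists, and the binding was mapped in mice of another strain than the RNA.

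**Figure D3:**
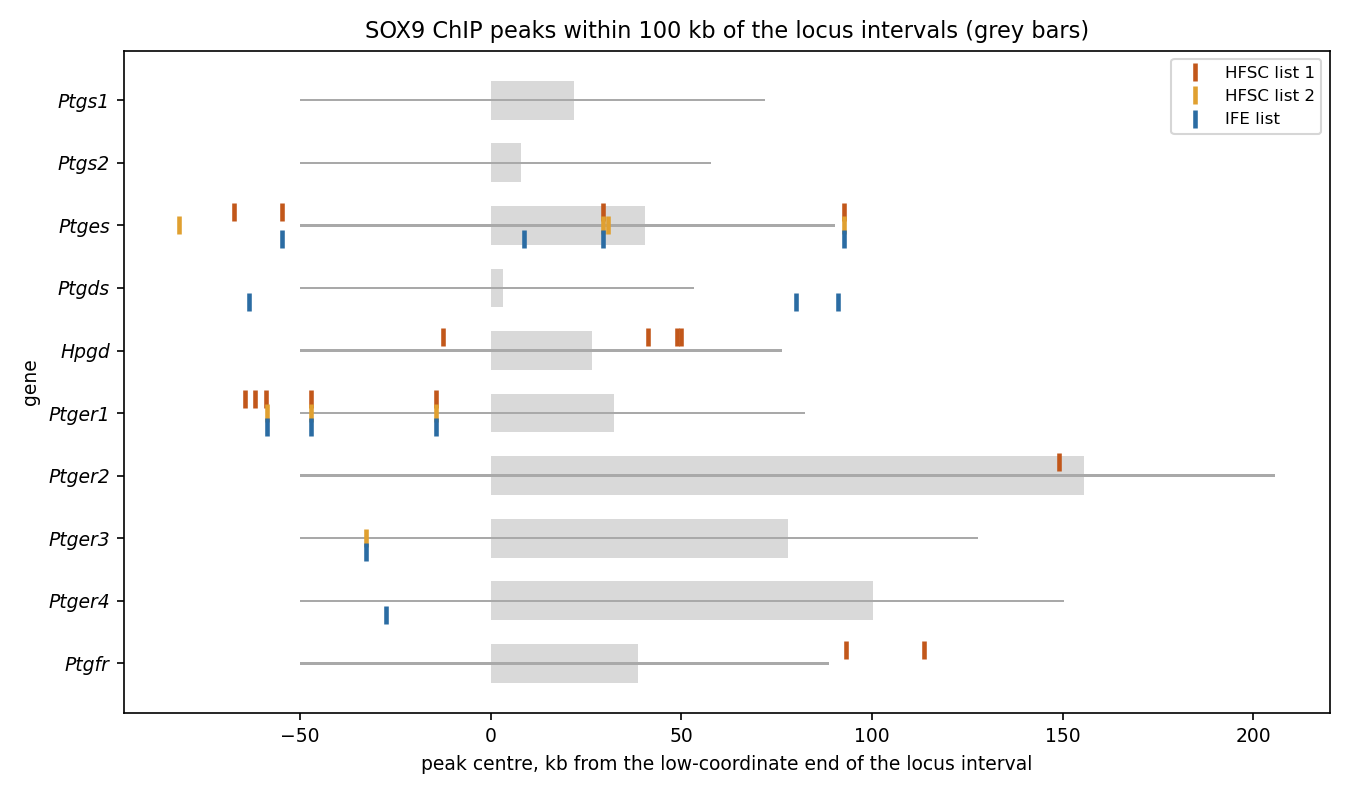
SOX9 peaks within 100 kb of each gene, as the distance in kb of the peak centre from the low-coordinate end of the deposited interval (grey bar); the thin line adds 50 kb on either side, and ticks mark HFSC list 1, HFSC list 2 and the IFE list from top to bottom. Ptges has ticks of all 3 lists at 2 positions and Ptger1 at 3, Hpgd has 4 of HFSC list 1 alone, and Ptgs1 and Ptgs2 have none.

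The replicate numbers made a larger difference than genotype for Ptgs2 and Hpgd. Replicate 2 minus replicate 1, a contrast that does not enter the rule by which the genes were listed, though their values in all 4 libraries were known by then, was tested with limma with genotype as a term; sex, age, days of treatment and library run cannot be told apart in it. Of the 6 genes tested, 1 rose and 1 fell at an adjusted p under 0.05, beside 25.8% of all genes that rose and 24.1% that fell, shares that leave the counts themselves no result about the group. Ptgs2 fell to 6.05 FPKM (labelled cKO) and 3.60 FPKM (control) in replicate 2, against 36.2 and 14.2 FPKM in replicate 1. That is a log2 difference of -2.06 ± 0.20 (moderated SE, limma, adjusted p = 0.000384), lower in both genotypes and the 54th lowest of all genes tested. Hpgd rose to 33.1 and 49.6 FPKM in replicate 2, against 11.6 and 19.3 FPKM in replicate 1 (log2 difference 1.37 ± 0.14, limma, adjusted p = 0.000396). Ptger4 was at 14.3 and 4.21 FPKM in replicate 2 and 11.3 and 3.51 in replicate 1 (0.27 ± 0.17, limma, adjusted p = 0.240), with a sign that turned to -0.23 when libraries were rescaled to 1 FPKM sum. That rescaling moved the median of all genes by -0.49 in this comparison; relative to the median, Ptger4 was at 0.26 with it and 0.27 without, Ptgs2 at -2.08 and -2.06, and Hpgd at 1.32 and 1.38. The other genes tested did not pass: Ptgs1 differed by 0.07 ± 0.17 (limma, adjusted p = 0.748; -0.48 when rescaled), Ptges by -0.10 ± 0.14 (adjusted p = 0.606) and Ptger1 by -0.27 ± 0.30 (adjusted p = 0.470).

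Of the 10 rows for differentiated epidermis, 3 rose in replicate 2 (Lor, Ivl and Krt10) and 0 fell. Of all genes tested, 25.8% rose and 24.1% fell. The 10 rows stand for 5 genes, as Flg is listed in several rows, none of which passed. By gene, 3 of 5 rose. The share that rose thus depends on how Flg is counted, and nothing about the list is read from it. Among the genes that rose was Lor, a cornified envelope gene. It stood at 1682 FPKM (labelled cKO) and 2775 FPKM (control) in replicate 2 and 247 and 341 in replicate 1. The list sums were 4689 and 7341 FPKM in replicate 2, against 2537 and 2681 in replicate 1. Their part in the Hpgd difference was not tested.

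**Figure D4:**
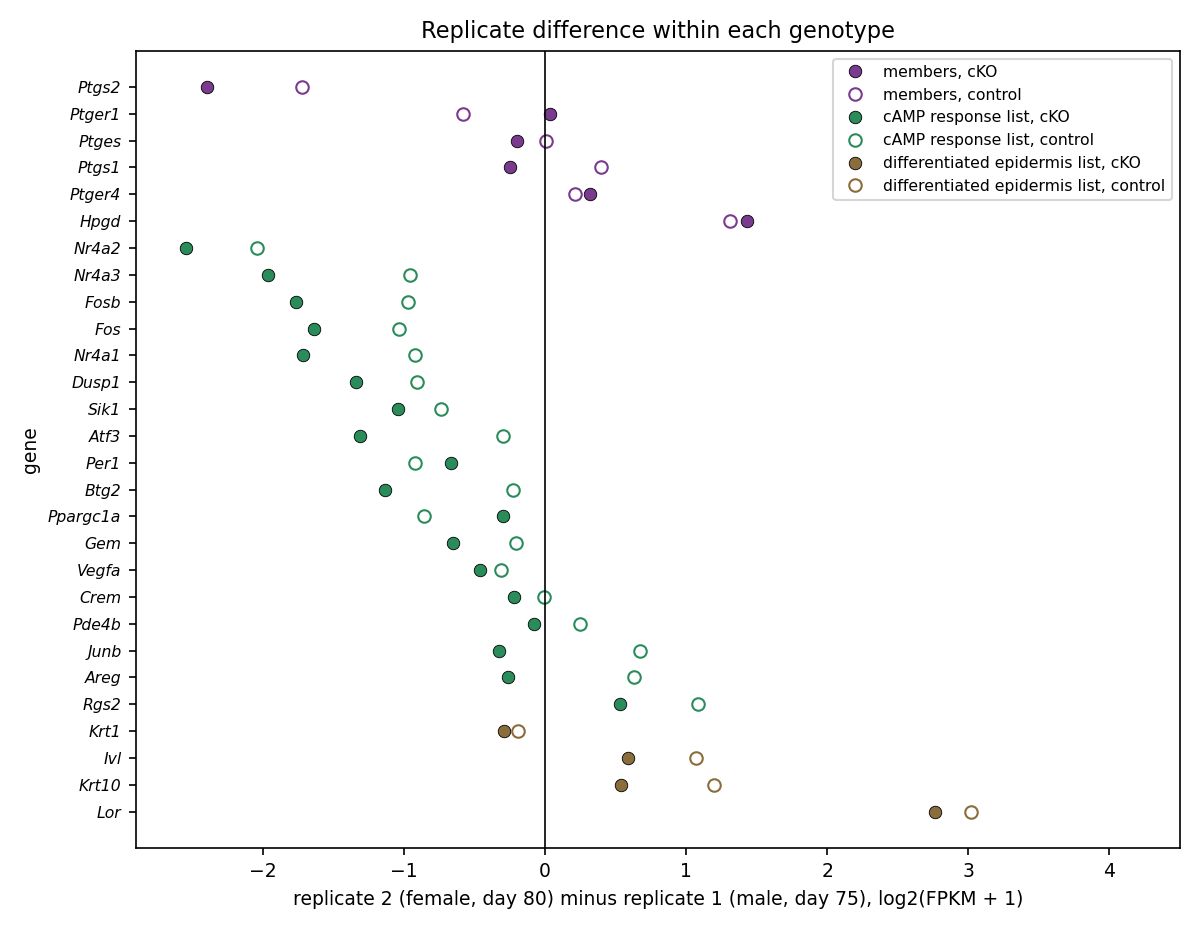
Replicate 2 (female, day 80) minus replicate 1 (male, day 75) on the log2(FPKM + 1) scale, within libraries labelled cKO (filled) and within controls (open), for tested genes of the group (purple), of the cAMP response list (green) and of differentiated epidermis (brown, without Flg). Ptgs2 lies at -2.40 and -1.73 and Nr4a2 at -2.54 and -2.04, while Hpgd lies at 1.44 and 1.31.

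Most of the cAMP response genes tested were lower in replicate 2, as Ptgs2 was. The cAMP response list, genes that cAMP and CREB can induce but that many other stimuli induce too, had 18 members tested, of which 10 fell and 1 rose in replicate 2, beside 24.1% of all genes that fell and 25.8% that rose. Fos stood at 1346 and 1438 FPKM in replicate 2 (labelled cKO, then control) and 4197 and 2950 in replicate 1 (-1.34, limma, adjusted p = 0.00135). Nr4a2, a nuclear receptor gene, changed by -2.29 (adjusted p = 0.000343), Nr4a3 by -1.46, Fosb by -1.37, Nr4a1 by -1.32, the phosphatase gene Dusp1 by -1.12, the kinase gene Sik1 by -0.89, Atf3 by -0.81, the clock gene Per1 by -0.79 and Btg2 by -0.68. Rgs2, a regulator of G protein signalling, changed by 0.81. The median over the list was -0.74, against -0.0013 over all genes tested. Other lists moved in the same comparison. All 3 sebocyte markers tested fell (median -1.24), and 3 of 5 immune markers tested rose (median 1.01 over the 5). Of 10 HFSC markers 5 fell, among them Nfatc1 (-1.78) and Lgr5 (-1.57), and 1, Krt14, rose (0.51). The part of any of these lists in the level of Ptgs2 was not tested.

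Genotype gave no call in that list. With the block limma called 0 of 18 and without it 0 (2 and 0 had p under 0.05 before adjustment, beside 11.4% of all genes with the block). The smallest p belonged to Vegfa, an angiogenic factor, and Gem, a small GTPase. Vegfa stood at 10.6 and 7.43 FPKM in libraries labelled cKO and at 5.97 and 4.60 in controls (log2 difference 0.66 ± 0.18, limma with the block, adjusted p = 0.312), with genotypes apart. Gem stood at 34.9 and 21.9 FPKM in libraries labelled cKO, against 20.5 and 17.6 in controls (0.52 ± 0.16, limma with the block, adjusted p = 0.366). Fos, Fosb, Nr4a1, Nr4a3, Atf3 and Junb were among those higher in the library labelled cKO of replicate 1 and lower in that of replicate 2. The median genotype difference of the list was 0.22, against -0.01 over all genes.

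Other genes of the prostaglandin pathway gave no genotype call either. Of 23 listed symbols 21 were found and 14 tested, and limma called 0 with the block and 0 without it (0 and 0 had p under 0.05 before adjustment). The smallest p belonged to Pla2g4f, a cytosolic phospholipase A2, at 10.8 and 7.27 FPKM in libraries labelled cKO and 12.2 and 11.7 in controls (-0.39, limma with the block, adjusted p = 0.471). Next was Cbr1, a carbonyl reductase that can act on prostaglandins, at 21.4 and 35.3 FPKM in libraries labelled cKO and 19.2 and 27.7 in controls (0.24, adjusted p = 0.567, same fit). The median genotype difference was 0.03.

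Between replicates, 5 of the 14 rose and 3 fell in replicate 2, beside 25.8% of all genes that rose and 24.1% that fell. Those that rose were Akr1c18 (2.75), an aldo-keto reductase, Ptgr1 (1.00) of prostaglandin breakdown, the synthase gene Ptges2 (0.75), Cbr1 (0.60) and Akr1b3 (0.47), all as log2 differences with limma's adjusted p between 0.00145 and 0.0416. Those that fell were Slco2a1 (-0.68), the transporter that takes prostaglandins into cells, Ptgfrn (-0.66), whose product associates with the F2α receptor, and Ptgr2 (-0.46), also of prostaglandin breakdown (adjusted p between 0.00648 and 0.0455). Akr1b3 turned to -0.06 when libraries were rescaled to 1 FPKM sum.

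Signal transducers downstream of the receptors, 20 of 23 tested, had 0 genotype calls with the block and 0 without (1 and 0 had p under 0.05 before adjustment, beside 11.4% of all genes with the block). Adcy3, an adenylyl cyclase, stood at 10.6 and 6.70 FPKM in libraries labelled cKO and 14.0 and 10.9 in controls (-0.50, limma with the block, adjusted p = 0.376). Gnaq, the G protein subunit used by EP1 and FP, stood at 10.4 and 3.63 FPKM in libraries labelled cKO and 11.1 and 7.25 in controls (-0.46, adjusted p = 0.490, same fit). The median genotype difference was -0.11. In replicate 2, 7 fell (Creb1 by 1.40, Prkar2a by 1.20, Adcy9 by 1.15, Gnaq by 0.93, Prkacb by 0.89, Adcy6 by 0.57 and Gnai1 by 0.45 on the log2 scale) and 2 rose (Arrb2 by 0.67 and Gnai2 by 0.51), with limma's adjusted p between 0.00071 and 0.0324, beside 24.1% of all genes that fell and 25.8% that rose. Gnai2 turned to -0.05 with rescaled libraries.

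Lipoxygenases and leukotriene genes, the other branch of arachidonic acid metabolism, had 9 of 13 tested and 0 genotype calls with or without the block (3 and 0 had p under 0.05 before adjustment, beside 11.4% of all genes with the block). Alox12b, a lipoxygenase of the epidermal barrier, stood at 12.6 and 18.8 FPKM in libraries labelled cKO and at 17.6 and 38.2 in controls (-0.72 ± 0.17, limma with the block, adjusted p = 0.254). Alox5ap, the 5-lipoxygenase activating protein, stood at 1.75 and 1.20 FPKM in libraries labelled cKO and 2.56 and 7.49 in controls (-1.16 ± 0.37, adjusted p = 0.369, same fit). The median genotype difference was -0.16. In replicate 2 Alox12b (0.81), Aloxe3 (0.46) and Lta4h (0.42) rose and Alox8 (-0.63) fell, with limma's adjusted p between 0.00791 and 0.0464, beside 25.8% of all genes that rose and 24.1% that fell. Rescaling turned Aloxe3 to -0.06 and Lta4h to -0.13.

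The genes whose pattern over the 4 libraries lay nearest to that of Ptger4 were Cxcl10, Mir678, Mir1938, Fhit and Nptx1, by Euclidean distance of centred log2(FPKM + 1) values (0.36 to 0.52). Cxcl10, a chemokine gene, stood at 1.89 and 3.89 FPKM in libraries labelled cKO and 0.403 and 0.631 in controls. Fhit stood at 10.3 and 14.3 FPKM in libraries labelled cKO and 5.20 and 5.14 in controls, and Nptx1, a neuronal pentraxin, at 6.13 and 5.67 against 2.21 and 1.69. The row of Cxcl10 has a long interval, 92760852 to 92843654 on chromosome 5. So do the 2 microRNA rows, 75669966 to 75700610 on chromosome 10 for Mir678 and 40928153 to 40975091 on chromosome 12 for Mir1938. Mir678 stood at 6.37 and 8.03 FPKM in libraries labelled cKO and 2.58 and 1.90 in controls. Mir1938 stood at 2.53 and 5.16 FPKM against 0.944 and 0.949. Which transcripts of the Cxcl10 and microRNA intervals gave the values was not tested. With 4 libraries such a likeness is only a description.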

How the data were processed

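Expression was deposited by the authors as FPKM per gene in 1 table, per the file headers. Tools named, without roles, in the submitters' processing notes are TopHat, TopHat2, Bowtie and Cufflinks 1.0.3, and the build is mm9; no source used here gives strand setting, filters or peak caller. FPKM scales with gene length and library total, so abundant transcripts lower all others. Reads per library are not given, and ratios of low values between libraries did not pile up at any step (the fullest bin held 3.67%), so depth, and with it the precision of low values, is unknown and no count model was used.

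The test was limma 3.58.1 (R 4.3.3) on the log2(FPKM + 1) scale (empirical Bayes with mean trend, two-sided, Benjamini-Hochberg over all 14455 genes with a mean of at least 1 FPKM, threshold 0.05). This scale understates changes of low genes. Genotype was fitted alone and with the replicate number as a block, the replicate contrast with genotype as a term; the fits were tested on simulated data. The numbers pair the libraries because the labels give same-numbered libraries 1 sex, age and treatment schedule; their deviations from group means correlated at 0.812 across genes. Nothing says whether libraries are separate animals, so the p-values reflect a spread that may be technical. A moderated SE shares spread across genes.

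Peaks were deposited as intervals without scores. Distances run from a peak to the locus interval of the table; lists overlapped at 1 bp or more. The genes and lists were chosen with earlier results of these data known. Pathway genes named are those called in either contrast and, per list, the 2 with the smallest blocked genotype p, and 5 genes nearest to Ptger4 in pattern. Input libraries were not analysed here.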

Additional observations from a re-analysis of the deposited data

Results flagged for a closer look

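Ptgs1 and Ptger1 had differences of opposite sign in the female pair (replicate 2) and the male pair (replicate 1), that of Ptgs1 being near 0 in replicate 1. The difference of the library labelled cKO minus its control on the log2(FPKM + 1) scale was -0.61 in replicate 2 and 0.039 in replicate 1 for Ptgs1, and 0.32 in replicate 2 and -0.30 in replicate 1 for Ptger1. Each value rests on 1 library against 1, and the difference between pairs was not tested. Ptger1 lies near 1 FPKM.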

How the results depend on the processing

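The count of genes called for genotype changed with the replicate block, with leaving out a library and, within the blocked fit, with the scaling, filter and trend. It was 0 with genotype alone, and also with a pseudocount of 0.1 or 5, no filter, quantile normalization, rescaled libraries or no mean trend. With 1 library left out and no block it ranged from 2 to 41, the highest without the cKO library of replicate 1, where part of the replicate difference enters. With the replicate block it was 41, with 33 at a pseudocount of 0.1, 78 at 5, 53 with a mean of at least 5 FPKM (chosen after seeing the data) and 3 with quantile normalization. It was 0 with the block and no filter, rescaled libraries or no mean trend. The block changed the call of Ptger4 and of no other gene in the group. For the replicate contrast 7221 genes were called, 3731 higher and 3490 lower, 3293 with no filter, and 1611 higher and 6918 lower with rescaled libraries. Leaving out a library leaves that fit no residual degrees of freedom, so it gave values with no test.

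The difference of Ptger4 for genotype lay between 1.00 (pseudocount 5) and 1.70 (pseudocount 0.1), and between 1.34 and 1.66 with 1 library left out. With 1 library left out the genotype difference lay between -0.25 and 2.15 for Ptgs2, -1.35 and 0.088 for Hpgd, -0.28 and 0.30 for Ptger1, -0.11 and 0.59 for Cbr1, and -1.11 and 0.19 for Gnaq. The sign held for Alox5ap (-1.79 to -0.53), Alox12b (-1.26 to -0.18), Adcy3 (-0.80 to -0.21), Pla2g4f (-0.65 to -0.14), Gem (0.19 to 0.84) and Vegfa (0.43 to 0.89). Ptger1 turned to -0.0027 at a pseudocount of 5 and -0.081 with rescaled libraries, with or without the block. In the replicate contrast Ptgs1 turned to -0.20 with quantile normalization and -0.48 with rescaling, and rescaling turned Ptger4 to -0.23, Akr1b3 to -0.060, Aloxe3 to -0.058, Lta4h to -0.13 and Gnai2 to -0.048. Of 780 recomputed values of single genes, 629 kept their direction and side of the threshold or moved within 1 SD, 49 lost the threshold, 5 gained it, 78 untested ones moved by more than 1 SD and 19 turned.

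With a window of 10 kb, or inside the interval only, genes with a peak numbered 2 in HFSC list 1, 1 in HFSC list 2, 1 in both and 1 in the IFE list. At 100 kb they numbered 5, 3, 2 and 5, and a shared peak defined by 0.5 of the shorter one left 2. The causes of these shifts were not tested.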

Other observations

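Genes for other prostanoids, from the same pathway list but named after their values were seen, were mostly listed near 0. Hpgds, the hematopoietic prostaglandin D synthase, stood at 6.78 and 2.38 FPKM in libraries labelled cKO and at 4.91 and 5.93 in controls, above Ptgds in every library. Ptgdr, for the D2 receptor DP1, stood at 0.705 and 1.08 FPKM in libraries labelled cKO and at 0.345 and 0.875 in controls. Ptgis, Tbxas1, Ptgir, Tbxa2r and Gpr44, for the synthases and receptors of prostacyclin and thromboxane and the second D2 receptor, stayed below 1 FPKM in all libraries. Pla2g4a, the phospholipase that releases arachidonic acid, stood at 40.1 and 34.6 FPKM in libraries labelled cKO and at 43.0 and 37.9 in controls, and Slco2a1 at 29.4 and 19.0 against 30.7 and 17.7.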
